A study of Homo sapiens with 12 samples.

Results

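The mitochondrial ribosomal protein genes were taken as every gene in the table of counts whose name is MRPL or MRPS, a number and at most 1 of the letters A, B and C. There were 77 of them among 38021 gene names, 48 named MRPL and 29 named MRPS, and all 77 had enough counts to be tested. RNA was measured in 786O cells, a clear cell renal cell carcinoma line that lacks functional VHL, and in WT8 cells, which are 786O cells made to express wildtype VHL. Both lines had been infected with lentivirus made from pLKO.1 vectors, which held either a control hairpin (shControl) or a hairpin that depletes BMAL1 (shBMAL1), and all cells had been selected and kept in puromycin. This gave 4 groups of 3 libraries, which the labels call biological replicates: 786O shControl, 786O shBMAL1, WT8 shControl and WT8 shBMAL1. WT8 is a single derivative line and 1 shRNA stands for the loss of BMAL1, so an effect of VHL cannot be told apart from other differences of WT8, nor an effect of BMAL1 from other effects of that shRNA.

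The mitochondrial ribosome translates the few messenger RNAs of mitochondrial DNA, which encode core subunits of the respiratory chain and ATP synthase. Its ribosomal RNAs come from mitochondrial DNA, but its proteins are encoded in the nucleus, made in the cytosol and imported. Some have counterparts in bacterial ribosomes and others were gained by the mitochondrial ribosome. BMAL1 is a bHLH-PAS factor of the circadian clock whose dimers bind E-boxes, and VHL is the ubiquitin ligase subunit that marks HIF alpha subunits for degradation. By protein, 50 of the 77 belong to the large subunit and 26 to the small subunit. MRPS18A and MRPS30 are counted in the large subunit, where their proteins sit despite their names, and MRPS36, now known as a component of the ketoglutarate dehydrogenase complex, was counted in neither.

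Promoter windows of RefSeq (GRCh38.p14, 250 bases before to 50 bases after the start) were found for 68 of the 77 genes. They were searched on both strands for letters known to be bound by factors linked to the study or to mitochondrial genes. A gene was counted if any of its windows held the letters. The E-box CACGTG was found for 9 of the 68 genes (13.2%), against 12.2% of 11630 tested genes. Of all 35116 single windows 7.26% held it, a share of windows that cannot be set beside shares of genes. The core of a hypoxia response element, ACGTG, which every E-box also holds, was found for 24 genes (35.3%, against 31.3% of tested genes). The ETS letters CCGGAAG were in 29 (42.6%, against 20.2%), the YY1 letters AAGATGGCG in 13 (19.1%, against 4.20%) and the NRF1 letters GCATGCGC in 6 (8.82%, against 5.90%). Since the design depletes an E-box binding factor, 3 of the E-boxes are shown here, chosen because no annotated exon overlaps them. On GRCh38.p14 they lie upstream of a listed start of MRPL22 (chr5:154940877-154940922, plus strand), MRPS18C (chr4:83455859-83455904, plus strand) and MRPS33 (chr7:141014755-141014800, minus strand). The capitals mark the E-box, and the ends of the E-boxes lie 170, 173 and 95 bases before a listed start. For MRPS33 this is not the start listed first, and its E-box lies downstream of that first start.

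MRPL22: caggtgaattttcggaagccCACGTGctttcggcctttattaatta
MRPS18C: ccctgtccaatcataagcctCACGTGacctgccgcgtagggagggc
MRPS33: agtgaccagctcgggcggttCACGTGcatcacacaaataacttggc

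The 80 bases directly before the listed start are shown for 2 genes described below in which this stretch holds letters searched for, MRPL17 (chr11:6683341-6683420, minus strand) and MRPS18A (chr6:43687792-43687871, minus strand). The same stretch of MRPL42, MRPL11 and MRPL50 holds none of these letters. The capitals mark the NRF1 letters, on either strand, and the hypoxia core read as CACGT in MRPL17, and the ETS letters in MRPS18A.

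MRPL17: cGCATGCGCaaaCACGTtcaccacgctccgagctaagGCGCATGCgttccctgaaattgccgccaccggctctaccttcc
MRPS18A: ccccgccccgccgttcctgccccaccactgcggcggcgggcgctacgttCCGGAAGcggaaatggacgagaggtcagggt

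The labels were checked before the comparisons. BMAL1, listed as ARNTL, fell from 12.1 ± 1.37 CPM (counts scaled to a common library total, mean ± SD, n = 3) to 3.94 ± 0.22 CPM with shBMAL1 in 786O, and from 9.24 ± 0.97 to 1.66 ± 0.24 CPM in WT8. VHL was at 18.8 ± 1.58 CPM in 786O shControl and 980.7 ± 56.5 CPM in WT8 shControl. With shBMAL1 its mean was 19.4 CPM in 786O and 646.9 CPM in WT8. The WT8 libraries ran from 916 to 1020 CPM with shControl and from 631 to 661 CPM with shBMAL1, without overlap. The WT8 groups thus also differed in VHL RNA. Totals ran from 33182025 to 36477509 counts per library. All 7 kidney epithelial markers were detected. Their summed level was 5592 to 5897 CPM in 786O shControl, 6252 to 6318 CPM in 786O shBMAL1, 4687 to 4705 CPM in WT8 shControl and 3684 to 3815 CPM in WT8 shBMAL1. With shBMAL1, 4 of the 7 rose and 2 fell in 786O, and all 7 fell in WT8. Of 6 markers of blood, vessel and liver cells, 4 were too low to test. CD68 fell in both lines, by 0.33 in 786O and 0.60 in WT8 on the log2 scale, and PECAM1, at most 0.87 CPM in any library, was called higher with shBMAL1 in 786O and lower in WT8. A list of 30 cell cycle genes summed to 1485 to 1557 CPM in the libraries of WT8 shControl. In the other groups the sum was 6587 to 6709 CPM (786O shControl), 6816 to 6989 CPM (786O shBMAL1) and 6696 to 6772 CPM (WT8 shBMAL1).

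The summed counts of the 77 genes made up a small share of each library, which was lowest in 786O shControl and highest in WT8 shBMAL1. The share was 0.416%, 0.423% and 0.433% in the libraries of 786O shControl and 0.457%, 0.465% and 0.450% in those of 786O shBMAL1. In WT8 it was 0.491%, 0.475% and 0.480% with shControl and 0.601%, 0.594% and 0.602% with shBMAL1. No library of a shBMAL1 group overlapped its shControl group in either line. A mean over genes had the same groups at the low end and the high end, with the mean log2 CPM of the 77 genes at 5.560 ± 0.007 (SD, n = 3) in 786O shControl, 5.585 ± 0.029 in WT8 shControl, 5.636 ± 0.029 in 786O shBMAL1 and 5.886 ± 0.013 in WT8 shBMAL1. In cultures measured in bulk, a change in the kinds of cells present and a change of RNA per cell cannot be told apart.

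**Figure D1:**
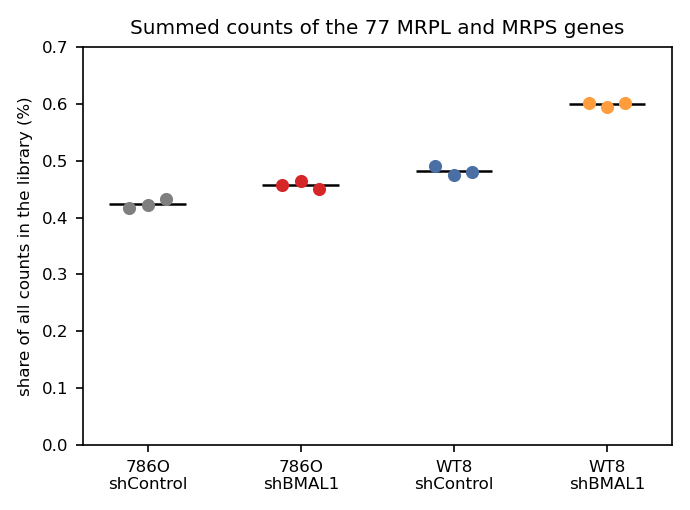
Share of all counts (%, linear axis from 0) taken by the 77 genes in each of the 12 libraries, by group, with a line at the group mean. The 3 WT8 shBMAL1 libraries sit between 0.594% and 0.602%, above the other 9, which lie between 0.416% and 0.491%.

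Per kilobase of the canonical transcript, the levels of the 77 genes in 786O shControl spanned 3.06 to 188 CPM per kilobase, with a median of 42.8. The highest were MRPS24 at 188, MRPL51 at 148 and MRPL33 at 139.9 CPM per kilobase, and the lowest were MRPL42 at 3.06, MRPL50 at 4.15 and MRPS36 at 4.53. The canonical transcript of MRPL42 is 15557 bases long, so its low rank depends on that choice of transcript.

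The first comparison asked what depletion of BMAL1 did in the VHL-deficient line. With shBMAL1 in 786O, 34 of the 77 genes rose and 6 fell, while 37 did not pass the test (edgeR, quasi-likelihood F test, adjusted p under 0.1 by Benjamini-Hochberg over 16838 genes). Over all genes tested 24.5% rose and 24.4% fell, so the share that rose was above this background and the share that fell below it. The changes were small. The median log2 change was 0.073 with quartiles of -0.015 to 0.20, against a median of 0.00075 over all genes tested, and no rise passed 1.5-fold, where 6.68% of all genes tested rose by more. The 2 groups did not overlap in CPM for 34 genes that were higher and 10 that were lower (25.7% and 25.2% of all genes tested). In the large subunit 24 of 50 rose and 5 fell (median log2 change 0.089), and in the small subunit 10 of 26 rose and 1 fell (median 0.050). Genes with bacterial counterparts (18 of 46 rose, 5 fell) and those specific to mitochondria (16 of 30 rose, 1 fell) had medians of 0.065 and 0.13.

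The largest fall was that of MRPS27, a pentatricopeptide repeat protein of the small subunit (chr5:71510780-71617544, minus strand, on GRCh37 like all gene positions given with values). It was at 24.3, 23.4 and 26.8 CPM in the 786O shControl libraries and at 10.2, 11.5 and 10.1 CPM in those of 786O shBMAL1. In WT8 it was at 22.1, 20.1 and 21.1 CPM with shControl and at 10.1, 11.9 and 10.97 CPM with shBMAL1. The shControl and shBMAL1 libraries did not overlap in either line, and the shBMAL1 libraries of both lines covered about the same range. The log2 change was -1.23 ± 0.088 (SE) in 786O and -0.94 ± 0.087 in WT8 (edgeR, adjusted p = 5.9e-14 and 1.1e-11). MRPS27 was the only one of the 77 genes to fall by over 1.5-fold in 786O, where 7.62% of all genes tested did, and in WT8, where 21.6% did. PTCD2, which overlaps it on the opposite strand, did not pass the test in either line (log2 change 0.08 and -0.07). Whether strand was used in counting is not stated. Of the 77 genes 37 overlap another annotated gene, 12 on the same strand and 31 on the opposite strand, and their values are uncertain to that extent.

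The other falls in 786O were smaller. MRPL17, the counterpart of a bacterial large subunit protein at the exit of the peptide tunnel (chr11:6701616-6704571, minus strand), was at 45.7, 56.6 and 55.5 CPM with shControl and 40.5, 40.1 and 36.9 CPM with shBMAL1. In WT8 its order was the opposite, with 39.4, 45.6 and 54.2 CPM with shControl and 61.4, 55.6 and 63.1 CPM with shBMAL1. The groups did not overlap in either line. The log2 change was -0.42 ± 0.11 in 786O and 0.37 ± 0.10 in WT8 (± SE, edgeR, adjusted p = 0.0047 and 0.0059). MRPL34 fell from 18.8 ± 1.06 to 14.6 ± 0.303 CPM (log2 change -0.37) and MRPL9 from 80.2 ± 3.06 to 64 ± 3.76 CPM (-0.33). Both are counterparts of bacterial large subunit proteins. The fall of MRPL16, at -0.15 (edgeR, adjusted p = 0.061), no longer passed without 786O shControl library 1 or without 786O shBMAL1 library 2 or 3. The sixth fall was that of MRPL33, from 66.2, 74.2 and 72.8 to 64.7, 67.1 and 57.5 CPM, whose groups overlapped; it is named here after its values were seen.

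Among the genes that rose in 786O, MRPS18A had the largest change. It is 1 of 3 genes related to that of the bacterial small subunit protein bS18. Only MRPS18C was counted here as the bacterial counterpart, and MRPS18A, whose protein sits in the large subunit, and MRPS18B were counted as specific to mitochondria. MRPS18A (chr6:43638939-43655528, minus strand) was at 24.8, 21.8 and 18.3 CPM with shControl and 34.6, 33.5 and 29.1 CPM with shBMAL1, with no overlap (log2 change 0.58 ± 0.10 SE, edgeR, adjusted p = 2.2e-05). Of the other genes related to bS18, MRPS18C rose by 0.24 (edgeR, adjusted p = 0.027), a call lost without 786O shControl library 1 or 2. MRPS18B was at 68.6 ± 3.28 and 68.8 ± 1.64 CPM and did not pass the test. MRPL50, a large subunit protein without a bacterial counterpart, was at 14.6, 13.95 and 12.97 CPM with shControl and 19.96, 21.4 and 19.9 CPM with shBMAL1, a log2 change of 0.56 ± 0.092 SE. MRPS23 of the small subunit rose by 0.41, MRPL32, which is matured by the m-AAA protease of the inner membrane, by 0.37, and MRPL42 by 0.36 on the log2 scale. MRPL12, the stalk protein that contacts translation factors, rose by 0.31 and MRPS6 by 0.32.

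The same shRNA was then compared in the line that expresses wildtype VHL, between libraries not contrasted in the first comparison. With shBMAL1 in WT8, 58 of the 77 genes rose and 4 fell, where 32.9% of all genes tested rose and 36.9% fell. The median log2 change was 0.29 (quartiles 0.11 to 0.47), against a median of -0.043 over all genes tested. In the large subunit 41 of 50 rose and 1 fell (median 0.33), and in the small subunit 16 of 26 rose and 3 fell (median 0.24). By over 1.5-fold 9 of the 77 rose, where 14.2% of all genes tested did, so the rises were many and mostly small. The groups did not overlap for 56 genes that were higher and 3 that were lower, against 31.6% and 36.0%. In the same comparison all 30 cell cycle genes rose, with a median log2 change of 2.26, and all 7 kidney epithelial markers fell, with a median of -0.49. The part of either in the rise of the 77 genes was not tested, nor was that of the lower VHL RNA in WT8 shBMAL1.

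**Figure D2:**
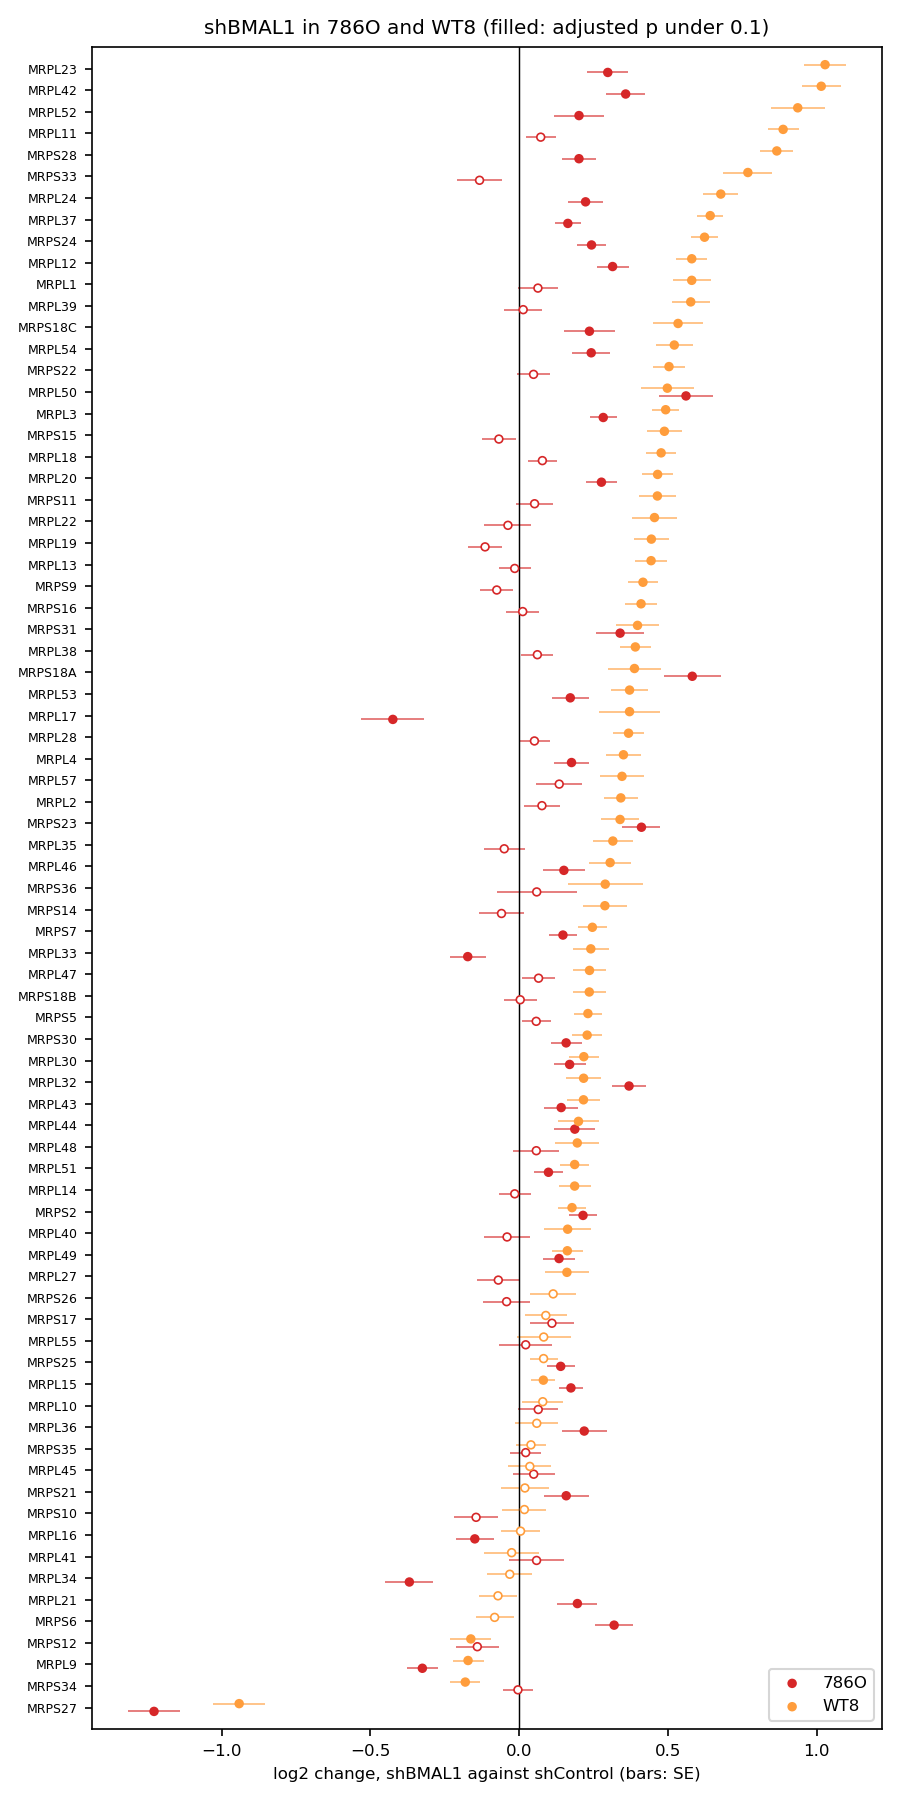
Log2 change with shBMAL1 for each of the 77 genes in 786O (red) and WT8 (orange), ordered by the change in WT8, with SE as bars and filled points for an adjusted p under 0.1. Most points lie to the right of 0, further in WT8 (58 rose) than in 786O (34 rose), and MRPS27 stands apart at the bottom with -1.23 and -0.94.

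The 5 largest rises in WT8 were those of MRPL23, MRPL42, MRPL52, MRPL11 and MRPS28, and none of their groups overlapped. MRPL23, the counterpart of the bacterial protein uL23 at the tunnel exit (chr11:1968508-2005752, plus strand), was at 19.7, 19.4 and 22.4 CPM with shControl and 40.5, 39.8 and 45.5 CPM with shBMAL1. Its log2 change was 1.03 ± 0.071 SE (edgeR, adjusted p = 3.7e-15). In 786O it was at 33.8, 33.2 and 32.6 CPM with shControl and 40.2, 42.5 and 39.6 CPM with shBMAL1, so the WT8 shControl libraries were the low ones and the shBMAL1 libraries of both lines covered about the same range.

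MRPL42, a large subunit protein specific to mitochondria (chr12:93861290-93909990, plus strand), was at 43.1, 42.7 and 35.3 CPM with shControl and 76.7, 83.96 and 84.3 CPM with shBMAL1 in WT8 (log2 change 1.02 ± 0.065 SE). In 786O it was at 47.4, 44.3 and 50.9 CPM with shControl and 62.3, 60.8 and 59.8 CPM with shBMAL1. Both shControl groups were thus below both shBMAL1 groups. MRPL11, which forms the base of the stalk (chr11:66202546-66234209, minus strand), was at 41.7, 40.4 and 39.6 CPM with shControl and 77.5, 72.9 and 74.9 CPM with shBMAL1 in WT8 (log2 change 0.89 ± 0.052 SE). In 786O it was at 63.4, 63.1 and 63.9 CPM with shControl and 67.6, 67.4 and 65.2 CPM with shBMAL1. Only the WT8 shControl libraries were low. MRPL52 rose by 0.94, from 7.86 ± 0.325 to 15.05 ± 0.210 CPM, and MRPS28, a small subunit protein, by 0.87, from 47.7 ± 1.02 to 87.05 ± 3.28 CPM.

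**Figure D3:**
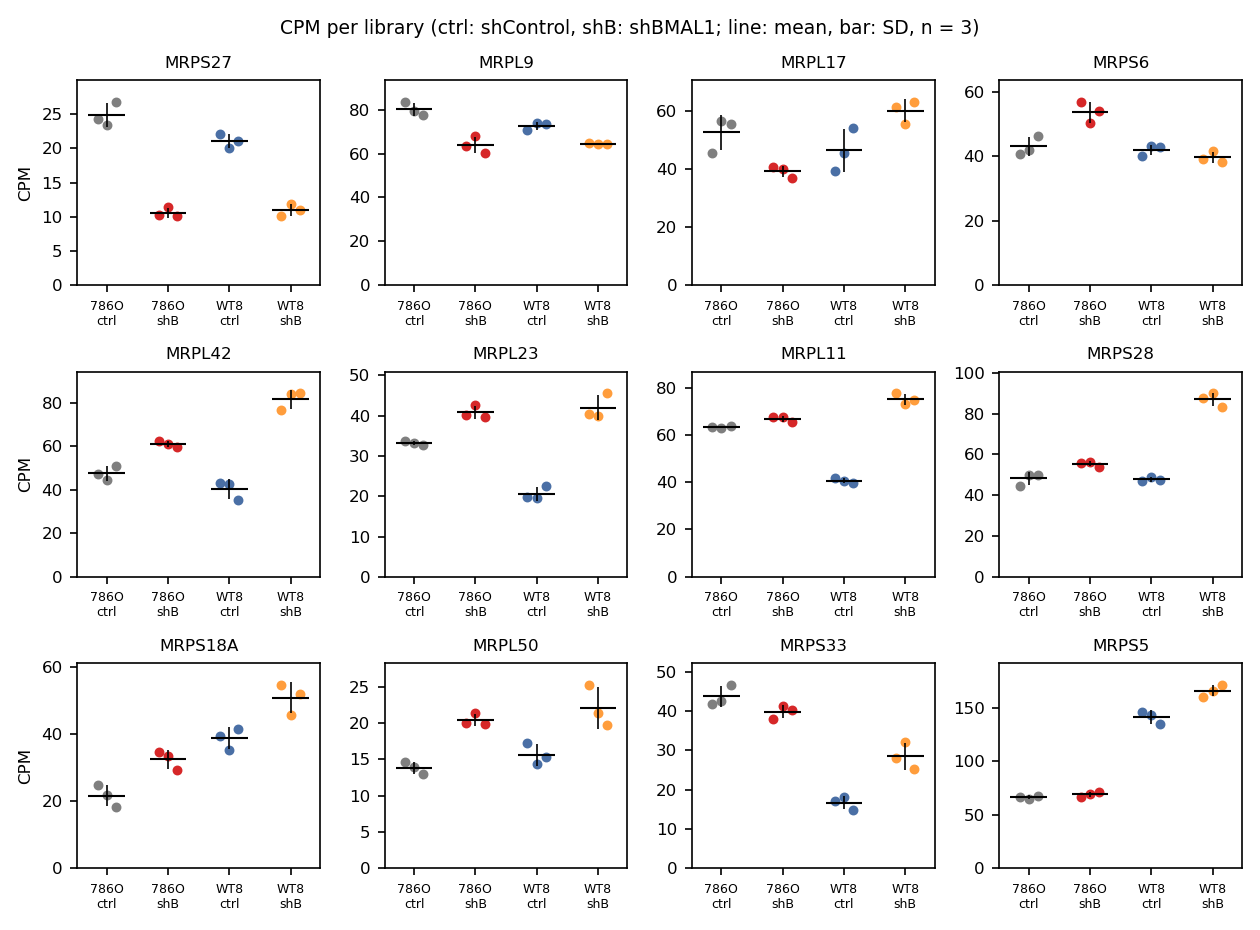
CPM (linear axes from 0) of 12 of the genes in each of the 12 libraries, with the group mean as a line and the SD as a bar (n = 3). MRPS27 and MRPL9 are lower with shBMAL1 in both lines, MRPL17 falls in 786O and is higher with shBMAL1 in WT8, and MRPL23, MRPL11 and MRPS33 have their lowest values in WT8 shControl.

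The 4 genes that fell in WT8 were MRPS27, MRPS34, MRPL9 and MRPS12. MRPL9 was at 70.5, 74.1 and 73.3 CPM with shControl and 64.9, 64.3 and 64.3 CPM with shBMAL1 (log2 change -0.17 ± 0.052 SE). MRPS34, a small subunit protein specific to mitochondria, was at 95.03, 87.7 and 96.2 CPM with shControl and 86.8, 78.2 and 81.1 CPM with shBMAL1 (log2 change -0.18 ± 0.051 SE). Both had groups free of overlap, though the changes were under 1.5-fold. MRPS12, the counterpart of the bacterial decoding centre protein uS12, changed by -0.16 (edgeR, adjusted p = 0.040), a call lost without WT8 shControl library 1 or 3 or WT8 shBMAL1 library 3. MRPS36, which is not a ribosomal protein, was called at 0.29 (edgeR, adjusted p = 0.044), but DESeq2 gave an adjusted p of 0.107 and the call was lost without WT8 shControl library 1 or WT8 shBMAL1 library 1 or 3.

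The comparisons of the 2 lines share no library and were set side by side. Of the 77 genes 29 rose in both (37.7%, against 12.4% of all genes tested) and 2 fell in both, MRPS27 and MRPL9 (2.60%, against 13.6%). MRPL17 and MRPL33 fell in 786O and rose in WT8, where 5.74% of all genes did so, and 0 genes rose in 786O and fell in WT8, where 6.37% did so. A further 27 rose in WT8 and did not pass in 786O (35.1%, against 14.8% of all genes tested), and 5 rose in 786O and did not pass in WT8 (6.49%, against 5.80%, near the background). Whether such genes differ between the lines is answered by the interaction. This is the log2 change in WT8 minus that in 786O, and it shares libraries with all other comparisons. The interaction also takes in the lower VHL RNA of WT8 shBMAL1, whose part was not tested. It was positive for 43 of the 77 genes and negative for 3 at an adjusted p under 0.1 (27.4% and 28.6% of all genes tested), with a median of 0.20, against -0.031 over all genes.

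**Figure D4:**
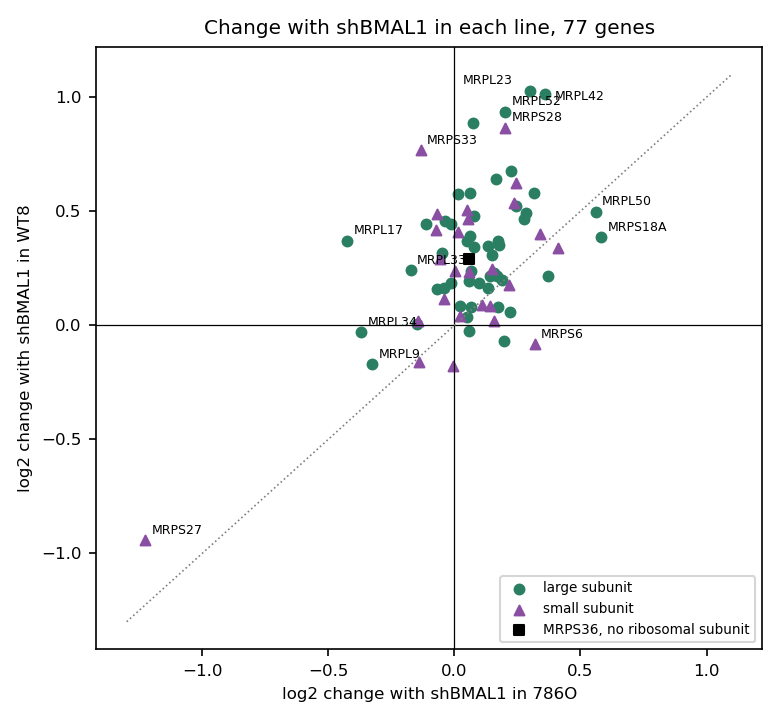
Log2 change with shBMAL1 in 786O (horizontal) and in WT8 (vertical) for the 77 genes, with large subunit proteins as circles, small subunit proteins as triangles and MRPS36 as a square, and a dotted line where both changes are equal. Most genes lie above that line (61 of 77 have a positive difference), MRPL17 lies in the upper left, and MRPS27 is alone at the lower left.

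The largest positive differences between the lines were those of MRPS33 (0.90 ± 0.11 SE), MRPL11 (0.81 ± 0.073), MRPL17 (0.80 ± 0.15), MRPL52 (0.74 ± 0.12) and MRPL23 (0.73 ± 0.10). MRPS33, a small subunit protein specific to mitochondria (chr7:140702410-140715028, minus strand), was at 41.9, 42.6 and 46.6 CPM in 786O shControl and 37.9, 41.3 and 40.4 CPM in 786O shBMAL1. It was at 17.1, 18.2 and 14.8 CPM in WT8 shControl and 28.1, 32.03 and 25.3 CPM in WT8 shBMAL1. The 786O groups did not overlap but the difference did not pass the test, and in WT8 the rise did (log2 change 0.77 ± 0.082 SE, edgeR, adjusted p = 3.4e-10). WT8 shBMAL1 remained below both 786O groups.

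The 3 negative differences were those of MRPS6, MRPL21 and MRPS34. MRPS6, the counterpart of the bacterial small subunit protein bS6 (chr21:35445524-35515334, plus strand), was at 40.7, 42.1 and 46.4 CPM in 786O shControl and 56.9, 50.4 and 53.98 CPM in 786O shBMAL1. In WT8 it was at 40.1, 43.1 and 42.8 CPM with shControl and 39.1, 41.6 and 38.3 CPM with shBMAL1, with overlap. The interaction was -0.40 ± 0.090 SE (edgeR, adjusted p = 3.0e-04). SLC5A3, which overlaps MRPS6 on the same strand, changed by -1.999 in WT8, and how reads common to both were assigned is not stated. The calls of MRPL21 (-0.27) and MRPS34 (-0.18) were lost without 786O shBMAL1 library 2, where 1 of the 77 genes was left with a negative call in place of 3. That of MRPS34 was also lost without WT8 shControl library 3, and the positive call of MRPS18C (0.30) without 786O shControl library 3.

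The control groups of both lines were compared to ask how the genes stood with and without VHL, on the same shControl libraries that the comparisons with shBMAL1 use. In WT8 shControl, 38 of the 77 genes were higher and 27 lower than in 786O shControl, where 39.3% of all genes tested were higher and 40.1% lower. The median log2 difference was 0.063 (quartiles -0.24 to 0.29), so the genes were spread to both sides of 0. Differences over 1.5-fold were seen in 6 genes that were higher and 5 that were lower (24.1% and 25.3% of all genes tested), and the groups did not overlap for 35 and 25 (38.2% and 39.3%). Scaled by total counts alone, 41 were higher and 19 lower and the median was 0.18, with that of all genes at 0.12. In this comparison all 30 cell cycle genes were lower in WT8, with a median log2 difference of -2.23. Their part in the values of the 77 genes was not tested.

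MRPS5, the counterpart of the bacterial protein uS5 (chr2:95751114-95787751, minus strand), was highest in WT8 relative to 786O. It was at 66.5, 64.5 and 67.9 CPM in 786O shControl and 146, 143 and 134 CPM in WT8 shControl (log2 difference 1.09 ± 0.048 SE, adjusted p = 5.6e-21 by edgeR). MRPL30 (chr2:99797615-99816024, plus strand) was at 41.1, 39.2 and 42.1 CPM in 786O shControl and 85.2, 86.4 and 82.2 CPM in WT8 shControl (log2 difference 1.05 ± 0.053 SE, adjusted p = 2.4e-19 by edgeR). MRPS9 (chr2:105654527-105716418, plus strand) was at 46.7, 47.2 and 44.3 CPM in 786O shControl and 81.5, 77.5 and 77.1 CPM in WT8 shControl (log2 difference 0.77 ± 0.053 SE, adjusted p = 2.3e-15 by edgeR). These 3 genes lie near each other on chromosome 2, and of the other tested genes within 5 Mb of each start 93.3%, 87.3% and 76.9% were also higher in WT8, with median log2 differences of 0.89, 0.88 and 0.77. MRPS18A and MRPS31, on chromosomes 6 and 13, were each higher in WT8 by 0.84 on the log2 scale, with neighbours at medians of 0.0053 and 0.12.

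The lowest genes in WT8 relative to 786O were MRPS33 (-1.39), MRPL52 (-1.01), MRPS21 (-0.91), MRPL23 (-0.69) and MRPL11 (-0.65). MRPL52, a large subunit protein specific to mitochondria, was at 14.6, 16.4 and 16.4 CPM in 786O shControl and 8.18, 7.86 and 7.53 CPM in WT8 shControl. MRPS21, a counterpart of bacterial bS21, was at 24.97, 28.3 and 28.6 CPM in 786O shControl and 13.4, 14.3 and 15.8 CPM in WT8 shControl. The neighbours of MRPS33 on chromosome 7 had a median of -0.59, with 23.9% of 46 higher, while those of MRPL52 and MRPS21 had medians of -0.23 and 0.053. Of the 77 genes 5 had neighbours with a median above 0.4, and all 5 were higher in WT8, but of the 6 with neighbours below -0.4, 3 were higher and 3 lower. MRPS30, with the lowest neighbours (median -0.84), was itself higher in WT8 by 0.25. All 8 of the genes on chromosome 1 were lower in WT8, with a median of -0.39, where 44% of the 1459 genes tested on that chromosome were lower and their median was -0.064. Over the 77 genes the difference between lines and the neighbours' median had Pearson's r = 0.50 and Spearman's rho = 0.45, as a description, since genes close together share neighbours. Copy number was not measured.

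**Figure D5:**
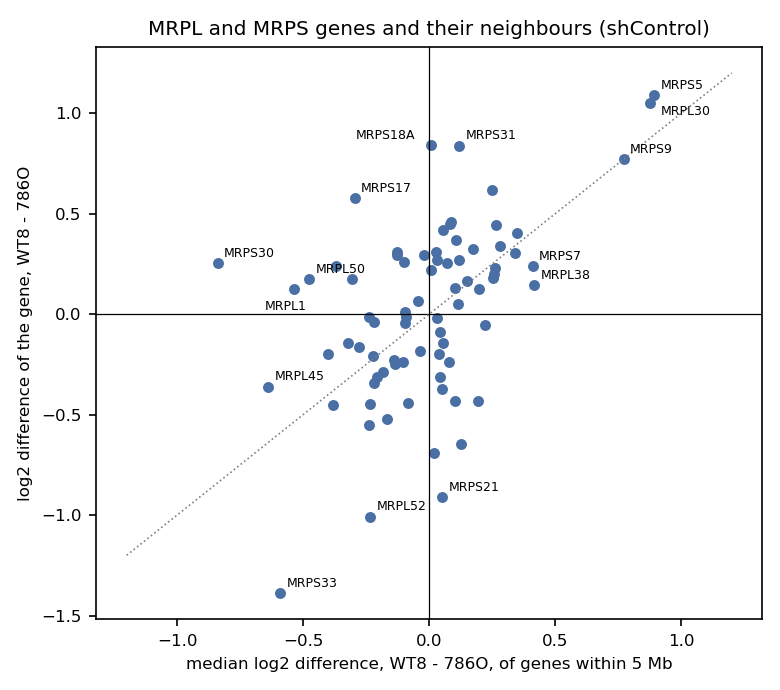
Log2 difference between WT8 shControl and 786O shControl for each of the 77 genes (vertical) against the median difference of the other tested genes within 5 Mb (horizontal), with a dotted line of equality. MRPS5, MRPL30 and MRPS9 lie at the upper right beside neighbours at 0.77 to 0.89, and MRPS33 lies at the lower left.

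By their starts, 27 of the 77 genes stand head to head with another protein-coding gene within 1000 bases. They form 26 pairs, 1 of which joins MRPL46 of the large and MRPS11 of the small subunit. The 62 bases between these annotated genes are shown as they part a gene of each subunit (GRCh37 chr15:89010622-89010683, plus strand, in lower case since no letters were singled out).

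MRPL46 to MRPS11: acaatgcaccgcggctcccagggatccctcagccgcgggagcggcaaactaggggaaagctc

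MRPL46 was at 23.2, 23.2 and 23.03 CPM in WT8 shControl and 29.3, 29.4 and 27.2 CPM in WT8 shBMAL1. MRPS11 was at 38.7, 36.2 and 33.6 CPM with shControl and 53.7, 47.6 and 48.5 CPM with shBMAL1, so that both rose. Between the lines they parted, with MRPS11 lower in WT8 by a log2 difference of -0.55 and MRPL46 at -0.016, not called. Of 25 pairs with both genes tested, both passed in WT8 in 19, with the same direction in 13 and the opposite in 6. Over all 1082 such pairs of protein-coding genes both passed in 637, and 61.2% of these had the same direction. In 786O both passed in 7 of the 25, with the same direction in 5 and the opposite in 2 (56.6% of 325 pairs had the same direction over all genes). Between the lines both passed in 19, with the same direction in 12 and the opposite in 7 (66.8% of 711). The 3 largest changes of partners in WT8 were those of SKA3, which rose by 2.49 beside MRPL57 (0.35), SLC7A7, which fell by 1.81 beside MRPL52 (0.94), and NCAPD2, which rose by 1.68 beside MRPL51 (0.19).

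By promoter letters, 5 of the 9 genes with an E-box rose and 0 fell in 786O, and 7 rose and 0 fell in WT8. Of the 59 genes whose windows lack it, 25 rose and 6 fell in 786O, and 44 rose and 4 fell in WT8. Over all genes tested the shares were, as above, 24.5% and 24.4% in 786O and 32.9% and 36.9% in WT8. The medians of the 9 genes were 0.13 and 0.19, against 0.066 and 0.29 for the 59 without. The 24 genes with the hypoxia core had medians of 0.050 and 0.37, against 0.10 and 0.24 for the 44 without. Of the 13 with the YY1 letters 9 rose in 786O and 11 in WT8, against 21 and 40 of the 55 without, and their medians were 0.20 and 0.39, against 0.059 and 0.24. Of the 29 with the ETS letters 13 rose in 786O and 23 in WT8, against 17 and 28 of the 39 without. Their medians were 0.066 and 0.34, against 0.073 and 0.25. Of the 6 with the NRF1 letters 3 rose in 786O and 6 in WT8, against 27 and 45 of the 62 without. Medians here were 0.10 and 0.41, against 0.069 and 0.24. Of the genes whose E-box is shown above, MRPS18C rose in both lines, while MRPL22 (-0.037 and 0.46) and MRPS33 (-0.13 and 0.77) rose in WT8 and did not pass in 786O.

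The rest of the machinery was taken from lists of related genes. Over all genes tested, as above, 24.5% rose and 24.4% fell in 786O, and 32.9% rose and 36.9% fell in WT8. Of 6 further mitochondrial ribosomal proteins with other names, 2 rose in 786O (33.3%) and 5 in WT8 (83.3%), led by CHCHD1 (0.25 and 0.68), and none fell. Nuclear genes of the respiratory chain and ATP synthase gave a list of 75. Of these 30 rose and 10 fell in 786O (40% and 13.3%, median 0.077), and 52 rose and 9 fell in WT8 (69.3% and 12%, median 0.25). The 77 cytosolic ribosomal protein genes are a list defined by name after values had been seen. Of these 16 rose and 10 fell in 786O, 27 rose and 29 fell in WT8 with a median of -0.0037, and 60 were higher and 7 lower in WT8 shControl than in 786O shControl (median 0.41).

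Factors that build the mitochondrial ribosome moved in both directions, as did all genes tested. Of 29 assembly factors, 5 rose and 9 fell in 786O (17.2% and 31.0%, against 24.5% and 24.4% of all genes tested). In WT8 12 rose and 7 fell (41.4% and 24.1%, against 32.9% and 36.9%). NGRN, needed for the large ribosomal RNA, fell in both lines (-0.72 and -0.95), and the pseudouridine synthase RPUSD3 changed by -0.59 in 786O and 0.39 in WT8. Of 19 aminoacyl-tRNA synthetases listed for mitochondria, 3 rose and 6 fell in 786O (15.8% and 31.6%). In WT8 12 rose and 4 fell (63.2% and 21.1%), where MARS2 fell by 0.93 and AARS2 rose by 0.79. The list includes GARS (-0.73 in 786O and 0.18 in WT8) and KARS (0.29 and 0.42), whose names do not mark them as mitochondrial. Of 17 translation factors and other proteins linked to translation, such as LRPPRC and OXA1L, 2 rose and 3 fell in 786O (11.8% and 17.6%). In WT8 6 rose and 5 fell (35.3% and 29.4%), led by SLIRP, which binds mitochondrial messenger RNA (1.02), and the recycling factor MRRF (0.78).

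Mitochondrial DNA encodes the messenger RNAs that this ribosome translates. Of these 13, 3 rose and 0 fell with shBMAL1 in 786O, and 0 rose and 5 fell in WT8. The shares that rose in 786O (23.1%) and fell in WT8 (38.5%) were near those of all genes tested (24.5% and 36.9%). In WT8 shControl 8 were higher than in 786O shControl (61.5%, against 39.3% of all genes tested). ND3 had the largest change, -0.82 in WT8. The ribosomal RNA of the large subunit, RNR2, rose by 0.41 in 786O and 0.30 in WT8, and that of the small subunit, RNR1, was at 0.050 and 0.057 without passing. The libraries were made for messenger RNA, so the ribosomal RNAs were measured only as far as that selection left them. Of 5 factors of mitochondrial DNA transcription, 2 rose and 1 fell in 786O (40% and 20%). In WT8 0 rose and 3 fell (60%), with the largest change in MTERF1 (-0.54). Of 11 tested genes listed as regulators of mitochondrial biogenesis, 5 rose and 1 fell in 786O (45.5% and 9.09%). In WT8 6 rose and 1 fell (54.5% and 9.09%). Over all genes tested 24.5% rose and 24.4% fell in 786O, and 32.9% rose and 36.9% fell in WT8. MYC rose by 0.53 in 786O and 0.14 in WT8, and GABPB2, a subunit of the ETS factor GABP, by 0.50 and 0.78. The group means of GABPB2 were only 3.02 to 5.43 CPM. The gene that fell was MAX in both lines (-0.30 and -0.47). PPARGC1A, which was near 1 CPM, rose by 1.22 in 786O and was at -0.33 in WT8 without passing.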

How the data were processed

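RNA from 12 cultures was sequenced as stranded mRNA libraries. According to the methods of the study, the authors used SeqMan NGen with GRCh37 for alignment and ArrayStar for gene counts, while the submitters' processing notes name hg38, STAR and DESeq2. The annotation, the use of strand and the treatment of reads with more than 1 alignment are not given in the sources used here. The deposited values were estimated counts, unscaled between libraries, although the tests had been laid out for plain counts. A value of 0.028 stood in for 0 and was set to 0, lines of the same name were summed, and the rest were rounded, which changed 35 of the 924 values of the 77 genes. Their lowest count was 176.

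Genes kept by filterByExpr (16838) were scaled by TMM (factors 0.948 to 1.04) and fitted with 1 mean per group over all 12 libraries by the robust quasi-likelihood F test of edgeR 4.0.16 in R 4.3.3. Benjamini-Hochberg adjustment covered all 16838 genes, and calls were made at an adjusted p under 0.1. The SE was taken as the absolute log2 change over the root of F. CPM are on TMM-scaled library sizes. The common biological coefficient of variation was 5.70%, and p-values measure the spread between these cultures of 1 line each. The steps were tested on simulated data. Positions, neighbours within 5 Mb and overlaps are from GENCODE version 44 on GRCh37, canonical transcripts gave the lengths, and promoter windows are from RefSeq.

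Given with values were the 5 largest called rises and falls of each comparison with a mean of at least 50 counts and no overlap between groups, the 3 highest and lowest levels per kilobase, and 7 fixed genes, MRPL12, MRPS12, MRPS18A, MRPS18B, MRPS18C, MRPS36 and MRPS6. Of each related list at most 3 genes with the largest called changes were given. Genes named for a promoter or a partner gene fall outside this rule, as do GARS, KARS, LRPPRC, OXA1L and MAX. All of these were chosen after their values were seen. Members, lists and this rule were chosen with earlier results of these data known, and lists were written from general knowledge. The alternatives were DESeq2 size factors, total counts, no filter, DESeq2 1.42.0, limma-voom (limma 3.58.1), a replicate block, only the groups compared, an adjusted p under 0.05, halved counts and leaving out each library.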

Additional observations from a re-analysis of the deposited data

Results flagged for a closer look

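By the interaction test (edgeR's quasi-likelihood test, Benjamini-Hochberg adjusted p under 0.1), 27.4% of all genes tested had a positive and 28.6% a negative call. A call by itself was thus common, and only the lean to positive values set the 77 genes apart from all genes tested. This lean was not particular to them. Of the 75 nuclear genes of the respiratory chain and ATP synthase 41 were positive and 9 negative (median 0.19). Of the 6 mitochondrial ribosomal proteins with other names 5 were positive and 0 negative (median 0.32). The 77 cytosolic ribosomal protein genes did not lean this way, with 16 positive and 17 negative (median -0.024). The change with shBMAL1 differed between the lines in 46 of the 77 genes, 43 positive and 3 negative. Values are the log2 change in WT8 minus that in 786O. Of these, 24 rose in WT8 and did not pass the test in 786O, namely MRPS33 (0.90), MRPL11 (0.81), MRPL39 (0.56), MRPL19 (0.56), MRPS15 (0.56), MRPL1 (0.52), MRPL22 (0.49), MRPS9 (0.49), MRPL13 (0.46), MRPS22 (0.46), MRPS11 (0.41), MRPL18 (0.40), MRPS16 (0.40), MRPL35 (0.37), MRPS14 (0.35), MRPL38 (0.33), MRPL28 (0.32), MRPL2 (0.27), MRPS18B (0.23), MRPL27 (0.23), MRPL57 (0.21), MRPL14 (0.20), MRPS5 (0.17) and MRPL47 (0.17). Another 14 rose in both lines, with the larger change in WT8, namely MRPL52 (0.74), MRPL23 (0.73), MRPS28 (0.67), MRPL42 (0.66), MRPL37 (0.48), MRPL24 (0.45), MRPS24 (0.38), MRPS18C (0.30), MRPL54 (0.28), MRPL12 (0.27), MRPL3 (0.21), MRPL53 (0.20), MRPL20 (0.19) and MRPL4 (0.17). MRPL17 (0.80) and MRPL33 (0.41) were called in opposite directions in the 2 lines. MRPS27 (0.29) and MRPL9 (0.15) fell in both lines and less so in WT8, and MRPL34 (0.34) fell in 786O and did not pass in WT8. The difference was negative for MRPS6 (-0.40), MRPL21 (-0.27) and MRPS34 (-0.18). With 3 libraries a group, single libraries that stand apart were not looked for.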

How the results depend on the processing

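With only the groups compared in the fit, 10 of the 77 genes fell in 786O in place of 6, and the WT8 median was 0.32 in place of 0.29. Total counts in place of TMM gave a median of 0.18 between the lines in place of 0.063, and 0.080 in place of -0.037 for MRPS6. Without a filter on low counts MRPS18B in 786O was at -0.000213 in place of 0.0038, not called in either. Leaving out 1 library at a time gave 25 to 33 rises and 4 to 9 falls in 786O (median 0.068 to 0.10), 54 to 58 and 3 to 4 in WT8 (0.27 to 0.32), 33 to 38 higher and 25 to 28 lower between the lines (0.056 to 0.088), and 36 to 44 positive and 1 to 4 negative interactions (0.19 to 0.23). It turned the sign of values that were not called, namely MRPS18B in 786O (-0.029 to 0.039), MRPS36 in 786O (-0.054 to 0.11), MRPS6 (-0.080 to 0.018) and MRPS18B (-0.000914 to 0.093) between the lines, and the interaction of MRPS12 (-0.085 to 0.046). The replicate numbers do not pair the libraries, since deviations of libraries of the same number correlated by -0.046 to 0.048, and a replicate block gave 32 rises and 6 falls in 786O and 58 rises in WT8. Over the single genes, 1218 of 1267 alternative values kept their direction and side of the threshold, 21 lost a call, 8 gained one and 20 changed sign. The lowest count was 176, and counting error weighs more on genes with few counts. In 786O the SE was 0.13 for MRPS36, with a mean of 257 counts, and 0.062 at the median of the 77 genes. Mates of a pair may also have been counted separately. Halved counts gave 34 rises and 6 falls in 786O and 57 and 4 in WT8.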
